A study of Mus musculus with 8 samples.

Results

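The nuclear genes for complexes III, IV and V of the mitochondrial respiratory chain were taken as every gene whose symbol begins with Uqc, with Cox followed by a digit from 4 to 8, or with Atp5. They number 45 of the 14457 genes in the table: 11 for complex III, 17 for complex IV and 17 for complex V. Complex III passes electrons from ubiquinol to cytochrome c, complex IV passes them from cytochrome c to oxygen, and complex V, the ATP synthase, uses the proton gradient that the chain builds up to make ATP. Most of their subunits are encoded in the nucleus and join a few core subunits encoded in mitochondrial DNA. Several complex IV subunits exist as paired isoforms, with a ubiquitous form and one of heart and skeletal muscle.

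RNA had been sequenced in bulk from the shaft of the femur of mice at postnatal day 7. The 4 CKO libraries came from Col2.3kb-Cre mice with the Slc26a2 fl/fl genotype and the 4 control libraries from Col2.3kb-Cre mice with the Slc26a2 fl/+ genotype, so Cre and at least 1 floxed allele were present in every library. Slc26a2 encodes a sulfate transporter, and Cre was driven by a short type I collagen promoter, which works in osteoblasts, so other cells of the shaft would keep the gene. The study asked what molecular changes accompany disturbed osteoblast maturation. Whether every library stands for its own mouse is not stated in the labels, so the p-values below rest on the spread between these samples, which may be technical.

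Slc26a2 stood at 4.37, 7.49, 4.85 and 4.85 FPKM in control replicates 1 to 4 and at 2.93, 2.08, 0.706 and 0.8289 FPKM in CKO replicates 1 to 4, with no overlap. FPKM (fragments for each kilobase of transcript, relative to all mapped fragments of the library) summed to 352283 to 379669 in control and to 431612 to 598419 in CKO libraries, and sequencing depth is unknown. CKO replicate 4 stood apart, with 155 genes listed at 0 against 5 to 31 elsewhere and 2.92% of its FPKM in mitochondrially encoded genes against 9.13% to 14.8%. The 4 Y-linked genes examined were listed at 0 in control replicate 1 and in CKO replicates 1 to 3 and were above 0 in the rest. The 8 osteoblast markers summed to 28987 to 36697 FPKM in control and to 5841 to 31770 FPKM in CKO libraries, none of them at 0. The 7 erythroid markers summed to 3012 to 10391 FPKM in control and to 12618 to 55979 FPKM in CKO, and the 8 neutrophil markers to 788 to 3913 FPKM in control and to 6108 to 27469 FPKM in CKO, with no overlap of the sums between genotypes and no marker at 0. As single genes, 3 of the 7 erythroid and 4 of the 8 neutrophil markers lay higher in CKO without overlap, against 12.7% of all genes tested. The 8 B lineage markers summed to 71.7 to 415 FPKM in control and to 201 to 507 FPKM in CKO, with overlap. In bulk RNA, fewer cells of a type and less RNA per cell cannot be told apart.

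Many transcripts of complexes III, IV and V were higher in CKO shafts, among them those of all small accessory subunits of complex III and of the membrane part of complex V. By limma on log2(FPKM + 1) with Benjamini-Hochberg adjustment at 0.05, 24 of the 45 genes rose, 0 fell and 21 did not pass. Among all 12748 genes tested, 3.88% rose and 0.651% fell. All 45 log2 fold changes were above 0, from 0.26 to 2.03, although 41 were with libraries rescaled to equal FPKM totals and 40 with quantile normalization. Their median was 1.38, against 0.01 for all genes. Every CKO library lay above every control library for 37 of the 45 genes, and the same was true of 12.7% of all genes tested. In the authors' deposited table, 38 of the 45 had a p-value under 0.05 with a higher level in CKO, against 16.2% of all its genes.

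The 45 genes together held 1.13%, 0.961%, 0.889% and 1.15% of the FPKM in control replicates 1 to 4 and 1.55%, 1.65%, 1.86% and 2.12% in CKO replicates 1 to 4. The 2 genotypes did not overlap in this share, and CKO replicates 3 and 4 were the highest. The median level over the 45 genes was 60.3 to 88.7 FPKM in the control libraries and 136 to 218 FPKM in the CKO libraries. CKO replicate 4 was the highest of the 8 libraries for 26 genes, CKO replicate 3 for 17 and CKO replicate 2 for 2. A control library was the highest for 0 of the 45.

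The adjusted p-values of the 24 genes lay between 0.0388 and 0.048, close under the threshold, and the calls did not survive the loss of most single libraries. Without control replicate 2, 3 or 4 or without CKO replicate 1, 2 or 3, no gene passed, whether among the 45 or over all genes. Without control replicate 1, 22 of the 45 rose, and 33 did without CKO replicate 4. Over all genes, 4.84% and 12.1% rose in those fits. In the 6 fits with 0 calls, 34 to 38 of the 45 were higher at an unadjusted p under 0.05, against 11.5% to 14.7% of all genes, and the median log2 fold change lay between 1.21 and 1.44. With all libraries 36 of the 45 were, against 15.9% of all genes. With the mean of the marrow-lineage markers (neutrophil, erythroid and B lineage) as a covariate, 0 of all 12748 genes passed. Of the 45, 35 were higher at an unadjusted p under 0.05, against 638 of all genes. The median log2 fold change of the 45 was 1.45. This covariate did not overlap between genotypes (mean log2(FPKM + 1) 5.24 to 7.18 in control, 7.74 to 7.95 in CKO). It therefore cannot be cleanly separated from genotype in this fit. With the skeletal muscle markers as a covariate, 27 rose, against 9.22% of all genes, with a median of 1.22. With Y-linked expression as a covariate 0 of all genes passed. At an unadjusted p under 0.05, 37 of the 45 were higher, against 12.2% of all genes, with a median of 1.21. Within the libraries where Y-linked genes were at 0 the median was 0.87 and all 45 were above 0, and within those where they were above 0 it was 1.86 and 44 were above 0. Neither class could be tested, since each holds a single library of one genotype.

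**Figure D1:**
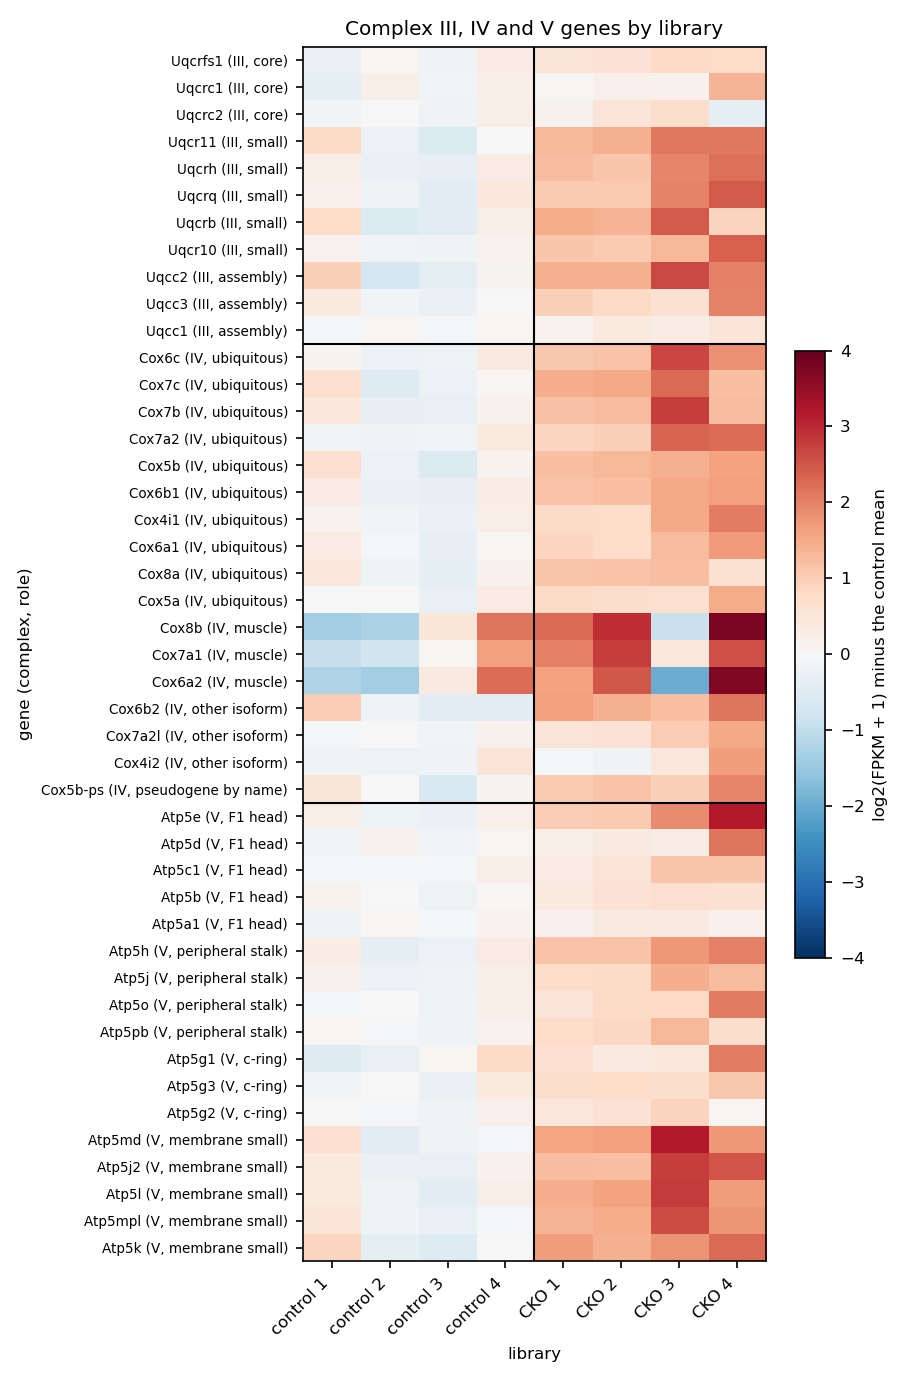
Level of each of the 45 genes (rows, with complex and role) in each of the 8 libraries (columns), as log2(FPKM + 1) minus the control mean of the gene. The CKO columns lie above the control mean in most rows, and the highest cell of a row falls in CKO replicate 4 for 26 genes and in CKO replicate 3 for 17.

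In complex III the 5 small subunits rose together, with log2 fold changes of 1.47 to 1.74, while the 3 core proteins did not pass. The longest annotated coding transcript had a median of 535 bases in the small subunits and 1653 in the core proteins. Over all genes tested 3.88% rose, and of those with a coding transcript up to 1000 bases 29.6% did. Fold changes varied with transcript length over all genes, as given below, and its part in this contrast was not tested. Uqcr11 (ENSMUSG00000020163, GRCm38 chromosome 10, 80402997 to 80406830), a small membrane subunit, stood at 82.9, 40.6, 32.7 and 48.0 FPKM in control replicates 1 to 4 and at 121, 130.5, 210.1 and 212 FPKM in CKO replicates 1 to 4. All CKO values lay above all control values, and control replicate 1 was the highest control. Means were 51.1 ± 22.1 and 168 ± 49.5 FPKM (SD, n = 4 each) for control and CKO, with a log2 fold change of 1.74 (SE 0.32, limma adjusted p = 0.0388). Uqcrh, the acidic hinge subunit that contacts cytochrome c1, was at 131, 89.3, 85.7 and 135 FPKM in the controls and at 260.3, 235, 423 and 503 FPKM in the CKO libraries. The groups did not overlap, and the log2 fold change was 1.64 (SE 0.30, limma adjusted p = 0.0388). Uqcr10, another small membrane subunit, was at 106, 89.2, 84.5 and 107 FPKM in control and at 207, 202, 243 and 511 FPKM in CKO. CKO replicate 4 was more than double the other CKO libraries, which themselves lay above every control, and the log2 fold change was 1.47 (SE 0.30, limma adjusted p = 0.0388). Uqcrq and Uqcrb, the remaining small subunits, rose by 1.63 and 1.56 on the log2 scale.

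Among the assembly factors of complex III, which help cytochrome b to be made and inserted, Uqcc2 rose and Uqcc1 and Uqcc3 did not pass. Uqcc2 stood at 40.7, 12.3, 16.1 and 22.7 FPKM in control replicates 1 to 4 and at 57.8, 56.7, 134 and 86.5 FPKM in CKO replicates 1 to 4. All CKO libraries exceeded all controls, and CKO replicate 3 was the highest. The means were 22.9 ± 12.6 and 83.7 ± 36.1 FPKM (SD, n = 4 each), with a log2 fold change of 1.87 (SE 0.38, limma adjusted p = 0.0388). Uqcc3 had a log2 fold change of 1.09 with an adjusted p of 0.0617, and Uqcc1 one of 0.34 with an adjusted p of 0.265.

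The large core proteins gave log2 fold changes of 0.26 to 0.66, below those of the 5 small subunits. Uqcrc2, a core protein on the matrix side, was at 49.1, 54.2, 48.1 and 63.7 FPKM in control and at 61.0, 77.3, 88.1 and 40.6 FPKM in CKO. The groups overlapped, with CKO replicate 4 below every control and CKO replicate 3 above all others, and the log2 fold change was 0.26 (SE 0.25, limma adjusted p = 0.557). Uqcrc1, its partner, had a log2 fold change of 0.45 (adjusted p = 0.393). Uqcrfs1, the Rieske iron-sulfur protein, had a log2 fold change of 0.66 (adjusted p = 0.0802) without overlap between groups. Cyc1, the haem-bearing cytochrome c1 of the complex, had a log2 fold change of 0.48 (adjusted p = 0.254), and Cycs, the mobile carrier cytochrome c, one of 1.37 (adjusted p = 0.0551). Of the 5 other complex III genes examined beside the 11, including assembly factors, 0 passed in either direction.

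**Figure D2:**
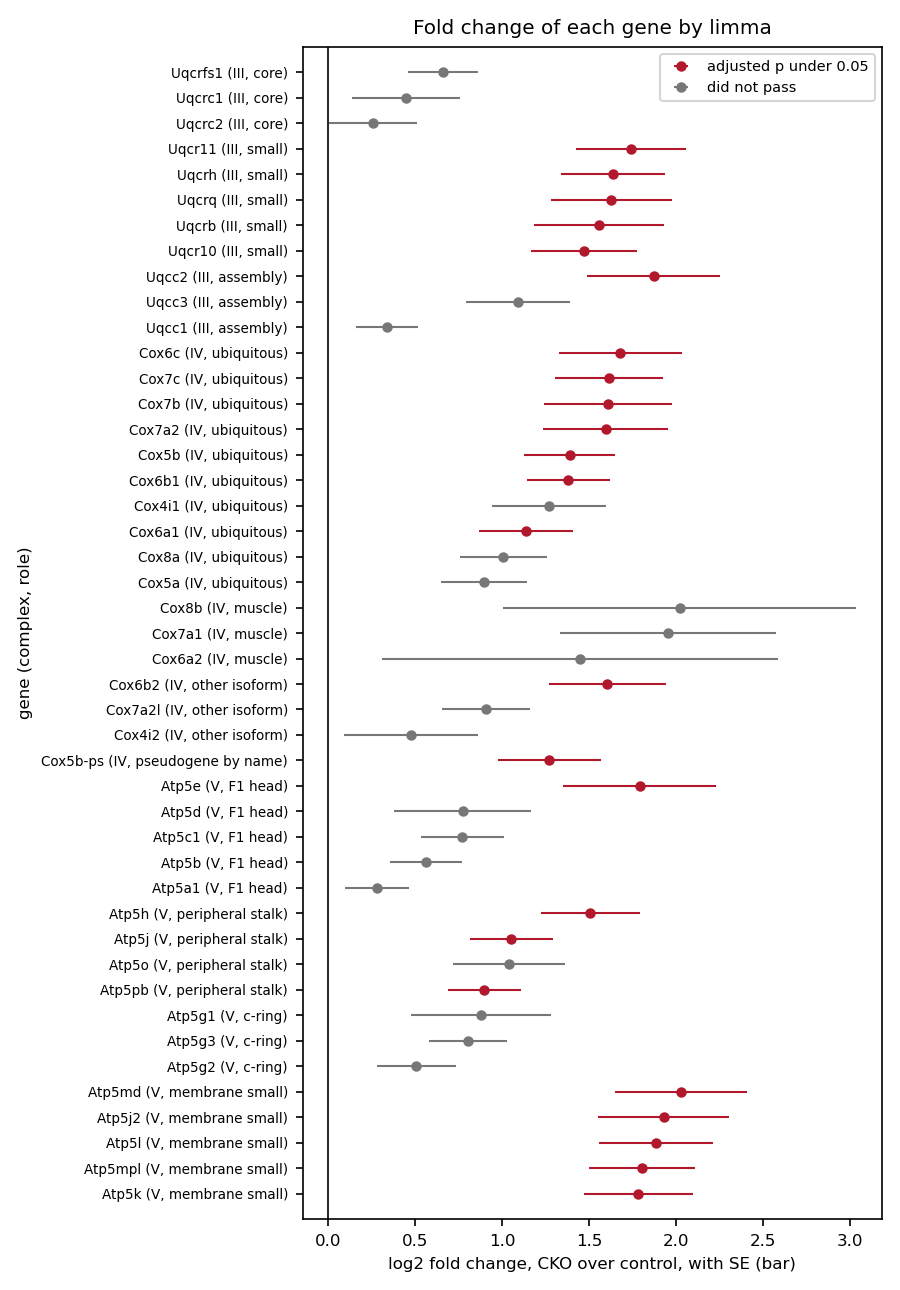
log2 fold change of CKO over control (point) with its SE (bar) for each of the 45 genes, from limma on log2(FPKM + 1), ordered by complex and role. The 5 small complex III subunits and the 5 small membrane subunits of complex V all passed the test, at 1.47 to 2.03, while the core proteins Uqcrc2 and Atp5a1 lie near 0.26 and 0.28. Median coding transcripts of the small subunits are 535 and 612 bases, against 1653 for the complex III core proteins and 1735 for the F1 head.

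In complex IV, 7 of the 10 ubiquitous subunits rose and the groups did not overlap for any of the 10. Their median log2 fold change was 1.38, the range was 0.90 to 1.68, and their median coding transcript was 684 bases. Among all genes with a coding transcript up to 1000 bases, 29.6% rose. For 58.4% of all such genes, CKO lay above control without overlap. Cox6b1, the subunit on the cytochrome c side of the complex, was at 108, 72.3, 68.2 and 106 FPKM in control replicates 1 to 4 and at 193, 201, 252 and 274 FPKM in CKO replicates 1 to 4. The lowest CKO library lay well above the highest control, and the spread among the CKO libraries was small. The means were 88.8 ± 21.4 and 230.2 ± 39.5 FPKM (SD, n = 4 each), with a log2 fold change of 1.38 (SE 0.24, limma adjusted p = 0.0388). Cox7c, a small membrane subunit, stood at 133, 59.0, 71.7 and 90.0 FPKM in control and at 231, 245, 413 and 198 FPKM in CKO. CKO replicate 4 was the lowest CKO library and CKO replicate 3 the highest, and the log2 fold change was 1.62 (SE 0.31, limma adjusted p = 0.0388). Cox6c and Cox7b, 2 further small membrane subunits, rose by 1.68 and 1.61 on the log2 scale.

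Cox5b, the zinc-binding subunit, was at 73.3, 39.6, 31.6 and 51.3 FPKM in control and at 108, 118, 126 and 145 FPKM in CKO. No library crossed between the groups, and the log2 fold change was 1.39 (SE 0.26, limma adjusted p = 0.0388). Cox5b-ps, whose name marks it as a copy of Cox5b, stood at 13.8, 9.60, 5.79 and 10.3 FPKM in control and at 20.6, 22.3, 19.2 and 39.1 FPKM in CKO. It rose by 1.27 (SE 0.29, limma adjusted p = 0.0453), but reads of a near copy and its parent may not have been told apart, so both values are uncertain. Cox4i1, the largest nuclear subunit, was at 287, 239.8, 215 and 314 FPKM in control and at 442, 438, 748 and 1091 FPKM in CKO. It had the highest mean of complex IV and groups that did not overlap, and its log2 fold change was 1.27 (SE 0.33, limma adjusted p = 0.0535). Cox5a and Cox8a also did not pass, with log2 fold changes of 0.90 (adjusted p = 0.0622) and 1.01 (adjusted p = 0.0503).

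The muscle isoforms Cox6a2, Cox7a1 and Cox8b did not pass the test, with log2 fold changes of 1.45 to 2.02 and wide spreads. Cox6a2 (ENSMUSG00000030785, GRCm38 chromosome 7, 128205435 to 128206387) stood at 2.71, 2.29, 9.95 and 38.8 FPKM in control replicates 1 to 4 and at 25.1, 46.7, 1.14 and 110.2 FPKM in CKO replicates 1 to 4. The lowest and the highest library were both CKO, and the log2 fold change was 1.45 (SE 1.14, limma adjusted p = 0.455). Cox7a1 (ENSMUSG00000074218, chromosome 7, 30184144 to 30186078) was at 0.981, 1.199, 2.98 and 10.8 FPKM in control and at 14.2, 24.8, 4.18 and 21.6 FPKM in CKO. Only CKO replicate 3 fell within the control range, and the log2 fold change was 1.95 (SE 0.62, limma adjusted p = 0.0888). Cox8b (ENSMUSG00000025488, chromosome 7, 140898945 to 140900446) was at 1.10, 1.29, 6.74 and 23.3 FPKM in control and at 25.3, 41.2, 1.94 and 74.0 FPKM in CKO. Again CKO replicate 3 was the library inside the control range, and the log2 fold change was 2.02 (SE 1.01, limma adjusted p = 0.243).

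The 18 skeletal muscle markers summed to 68.1, 210.4, 1421 and 3828 FPKM in control replicates 1 to 4 and to 2395, 3510, 170.3 and 9963 FPKM in CKO replicates 1 to 4, with none at 0. In the marker sum, in Cox6a2 and in Cox8b alike, CKO replicate 3 was the lowest and CKO replicate 4 the highest of the CKO libraries, and control replicates 3 and 4 lay above the other controls. Cox7a1 had the same lowest CKO library, but was highest in CKO replicate 2, at 24.8 FPKM against 21.6 FPKM in CKO replicate 4. All 18 markers had log2 fold changes above 0, with a median of 1.45, and 0 of the 18 passed. The part of muscle RNA in the isoform difference was not tested. The brown fat markers Ucp1, Cidea and Elovl3 are not among the 14457 genes with values, so their levels are unknown.

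The ubiquitous partners were far more abundant per length in every library. Cox6a1 stood at 248, 186, 159.6 and 212 FPKM in control and at 363, 333, 477 and 644 FPKM in CKO. It rose without overlap, by 1.14 on the log2 scale (SE 0.27, limma adjusted p = 0.0464), and, unlike Cox6a2, it was above all controls in CKO replicate 3. Cox7a2 was at 61.9, 60.3, 62.2 and 88.7 FPKM in control and at 123, 132, 345 and 319.9 FPKM in CKO. It rose by 1.60 (SE 0.36, limma adjusted p = 0.0435), and CKO replicate 3, where Cox7a1 was lowest among CKO libraries, was its highest library. Cox8a was at 197, 126, 112 and 163 FPKM in control and at 313, 323, 335 and 221 FPKM in CKO, again highest in CKO replicate 3.

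As a share of the pair, Cox6a2 made up 1.08%, 1.21%, 5.87% and 15.5% of Cox6a1 plus Cox6a2 in control replicates 1 to 4 and 6.46%, 12.3%, 0.238% and 14.6% in CKO replicates 1 to 4. Cox7a1 made up 1.56% to 10.8% of its pair with Cox7a2 in control and 1.1995% to 15.8% in CKO. Cox8b made up 0.552% to 12.5% of its pair with Cox8a in control and 0.576% to 25.1% in CKO. The genotypes overlapped in all 3 shares. The mean log2 ratio of muscle to ubiquitous isoform was higher in CKO by 0.31 for Cox6a2/Cox6a1, by 0.36 for Cox7a1/Cox7a2 and by 1.01 for Cox8b/Cox8a, against SDs within a group of 0.94 to 2.44. The first of these turned to -0.20 without control replicate 1, to -0.12 without control replicate 2, to -0.17 without CKO replicate 2 and to -0.26 without CKO replicate 4, and the second to -0.13 without CKO replicate 2.

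**Figure D3:**
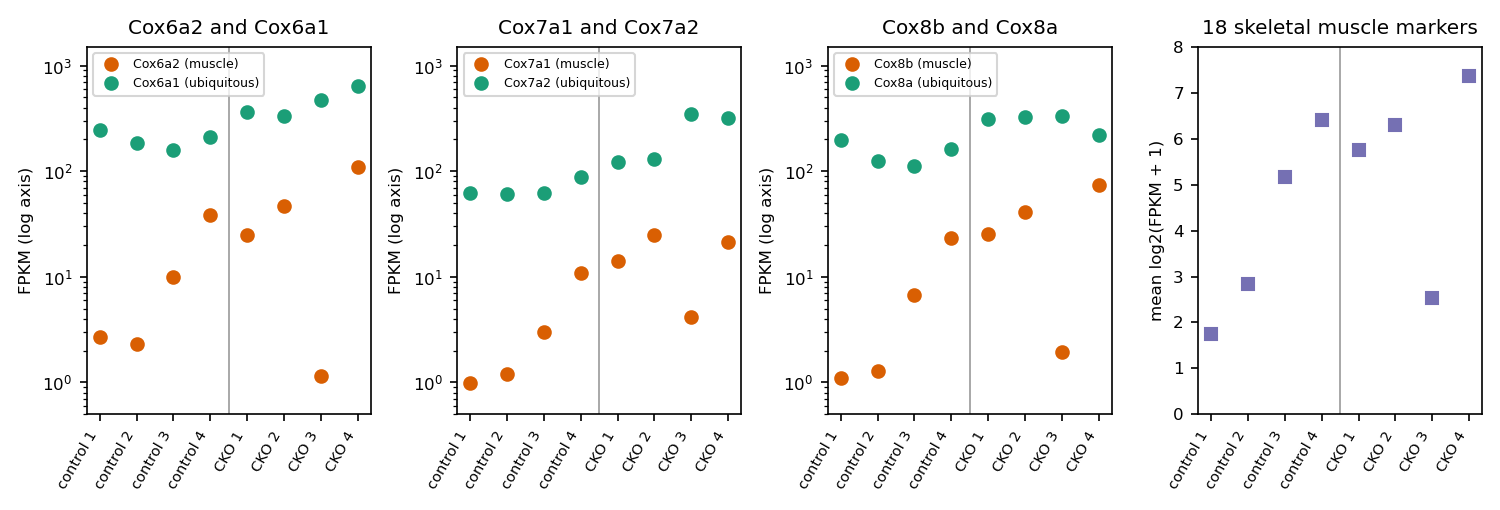
FPKM (log axis) of each muscle isoform and its ubiquitous partner in the 8 libraries, 1 panel a pair, with the mean log2(FPKM + 1) of the 18 skeletal muscle markers in the last panel. The ubiquitous forms are higher in every CKO library than in any control, while the muscle forms range from 1.14 to 110.2 FPKM for Cox6a2 within the CKO group.

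The pairs also differ in the base composition of their promoters, shown here for Cox8 and Cox7a because these are the 2 muscle isoforms with an entry in the RefSeq promoter table (GRCm38.p6). Each line gives the 250 bases before the transcription start in the direction of the gene, 5′ to 3′, with every CG dinucleotide in capitals. The Cox8a stretch is chr19:7217617-7217866 and the Cox8b stretch chr7:140900447-140900696, both on the minus strand. The Cox7a2 stretch is chr9:79759854-79760103 on the minus strand and the Cox7a1 stretch chr7:30183921-30184170 on the plus strand.

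Cox8a: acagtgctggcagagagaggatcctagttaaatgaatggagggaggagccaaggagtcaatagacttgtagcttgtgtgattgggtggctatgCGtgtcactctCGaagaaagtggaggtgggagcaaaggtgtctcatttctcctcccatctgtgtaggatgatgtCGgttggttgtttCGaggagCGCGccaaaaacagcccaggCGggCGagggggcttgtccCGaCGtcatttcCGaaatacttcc

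Cox8b: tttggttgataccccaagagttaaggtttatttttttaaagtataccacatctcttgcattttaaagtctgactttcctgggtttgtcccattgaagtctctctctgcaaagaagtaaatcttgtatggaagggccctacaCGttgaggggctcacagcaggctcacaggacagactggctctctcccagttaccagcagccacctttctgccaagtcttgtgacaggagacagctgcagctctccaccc

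Cox7a2: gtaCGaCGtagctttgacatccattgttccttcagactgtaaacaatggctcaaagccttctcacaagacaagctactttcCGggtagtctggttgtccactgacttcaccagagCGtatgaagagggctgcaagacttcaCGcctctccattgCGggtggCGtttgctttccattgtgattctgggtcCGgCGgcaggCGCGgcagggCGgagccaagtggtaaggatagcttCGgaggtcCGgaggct

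Cox7a1: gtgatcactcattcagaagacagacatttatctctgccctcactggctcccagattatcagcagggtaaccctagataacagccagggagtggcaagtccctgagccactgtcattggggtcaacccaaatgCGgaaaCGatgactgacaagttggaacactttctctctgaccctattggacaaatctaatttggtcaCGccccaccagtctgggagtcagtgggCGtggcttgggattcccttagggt

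The count of CG dinucleotides was 11 in Cox8a and 1 in Cox8b, and 14 in Cox7a2 and 4 in Cox7a1. The 8 ubiquitous complex IV genes with an entry held 5 to 26, with a median of 14, and both muscle isoforms lay below that range. The median over all 27025 genes of the table was 6. This describes the sequence only, and no methylation was measured here.

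The 3 remaining complex IV isoforms gave mixed values. Cox6b2, known as the testis form of Cox6b1, stood at 22.0, 9.34, 7.74 and 7.76 FPKM in control and at 35.2, 29.9, 26.0 and 50.6 FPKM in CKO. The groups did not overlap although control replicate 1 was far above the other controls, and Cox6b2 rose by 1.60 (SE 0.34, limma adjusted p = 0.0388). Cox7a2l, a Cox7a relative that joins complexes III and IV into supercomplexes, was at 104, 109, 99.5 and 121 FPKM in control and at 158, 161, 218 and 312 FPKM in CKO. All CKO values were above all control values, with a log2 fold change of 0.91 (SE 0.25, limma adjusted p = 0.0635). Cox4i2, the isoform of Cox4i1 known from lung and from low oxygen, was at 5.68, 5.49, 5.69 and 9.59 FPKM in control and at 6.04, 5.74, 9.16 and 22.8 FPKM in CKO. The groups overlapped, and the log2 fold change was 0.48 (SE 0.38, limma adjusted p = 0.468), the lowest of complex IV.

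In complex V the 5 small subunits of the membrane part rose, with log2 fold changes of 1.78 to 2.03 and a median of 1.88, the highest median of the roles with all members passing. Their median coding transcript was 612 bases. Among all genes tested 3.88% rose, and among those with a coding transcript up to 1000 bases 29.6% did. Atp5md (ENSMUSG00000071528, GRCm38 chromosome 19, 47083464 to 47090647), a small subunit linked to the pairing of synthase units, was at 110.0, 51.9, 63.2 and 68.3 FPKM in control replicates 1 to 4 and at 211, 224, 638 and 237 FPKM in CKO replicates 1 to 4. All CKO libraries exceeded all controls, and CKO replicate 3 stood far above the rest. The means were 73.4 ± 25.4 and 328 ± 207 FPKM (SD, n = 4 each), with a log2 fold change of 2.03 (SE 0.38, limma adjusted p = 0.0388), the largest of the 45. Atp5l, subunit g, was at 104, 67.8, 58.6 and 93.3 FPKM in control and at 219, 240.3, 558 and 253 FPKM in CKO. Its pattern was the same, with CKO replicate 3 on top, and the log2 fold change was 1.88 (SE 0.33, limma adjusted p = 0.0388).

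Atp5mpl, another small membrane subunit, stood at 91.1, 56.0, 51.4 and 58.8 FPKM in control and at 163, 178, 387 and 214 FPKM in CKO. It rose by 1.803 (SE 0.31, limma adjusted p = 0.0388) with no overlap. Atp5k, subunit e, which takes part in dimer formation of the synthase, was at 49.4, 20.8, 18.6 and 26.8 FPKM in control and at 86.9, 74.1, 94.7 and 132 FPKM in CKO. Here the CKO libraries lay close together, CKO replicate 4 was the highest, and the log2 fold change was 1.78 (SE 0.31, limma adjusted p = 0.0388). Atp5j2, subunit f, rose by 1.93.

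The catalytic F1 head gave smaller values, although its groups did not overlap for any of its 5 genes. CKO lay above control without overlap for 12.7% of all genes tested. The median coding transcript was 1735 bases for the head and 612 for the small membrane subunits. The part of length in this contrast was not tested. Atp5b, the catalytic beta subunit, was at 323, 291, 256 and 305 FPKM in control and at 383, 436, 468 and 449.9 FPKM in CKO. The groups were tight and separate, and the log2 fold change was 0.56 (SE 0.21, limma adjusted p = 0.128). Atp5a1, the alpha subunit, was at 104, 123, 112 and 129.6 FPKM in control and at 136, 149, 148 and 134 FPKM in CKO. The means were 117 ± 11.4 and 142 ± 8.004 FPKM (SD, n = 4 each), and the log2 fold change of 0.28 (SE 0.18, limma adjusted p = 0.372) was the lowest of complex V. Atp5e, the small epsilon subunit, rose alone among the 5, from 169.7, 125, 119.8 and 167 FPKM in control to 294, 300.1, 536 and 1309 FPKM in CKO. CKO replicate 4 alone stood above all other libraries by more than double, and the log2 fold change was 1.79 (SE 0.44, limma adjusted p = 0.048). Atp5c1 and Atp5d, the gamma and delta subunits of the central stalk, had log2 fold changes of 0.77 and 0.77 with adjusted p-values of 0.0852 and 0.25.

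Of the 4 peripheral stalk genes, which hold the head still against the rotor, Atp5h, Atp5j and Atp5pb rose by 1.51, 1.05 and 0.90. The share of all genes tested that rose was 3.88%, and 29.6% for those with a coding transcript up to 1000 bases. Atp5o, which caps the stalk, had a log2 fold change of 1.04 (adjusted p = 0.0834). The 3 c-ring genes Atp5g1, Atp5g2 and Atp5g3 encode the same mature protein, and their log2 fold changes were 0.88, 0.51 and 0.80 with none passing. Among the 5 complex V assembly and regulatory genes examined, 1 rose: Atpif1, the inhibitor that blocks reverse hydrolysis of ATP, stood at 154, 85.0, 81.8 and 85.6 FPKM in control and at 318, 244, 598 and 384 FPKM in CKO, a log2 fold change of 1.89 (limma adjusted p = 0.0388).

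Counted by complex, 6 of 11 complex III genes, 9 of 17 complex IV genes and 9 of 17 complex V genes rose. Over all genes tested, 3.88% rose. The median log2 fold changes of the 3 complexes were 1.47, 1.39 and 1.04. The difference also varied with transcript length. Of the 31 genes whose longest annotated coding transcript was at most 1000 bases, 20 rose, with a median log2 fold change of 1.51. Of the 14 longer genes 4 rose, with a median of 0.77. Across all genes the same split gave 29.6% of 670 short genes rising, with a median of 1.04, and 2.30% of 11416 longer genes, with a median of -0.03. The groups did not overlap, with CKO higher, for 26 of the 31 short genes of the 3 complexes, against 58.4% of all short genes. The Spearman correlation of length with log2 fold change was -0.58 across the 45 genes and -0.63 across 12086 genes, which share the same 8 libraries. After a smooth trend with length over all genes was subtracted, 0 genes passed, whether among the 45 or over all genes. The median of the 45 was 0.30, against -0.02 for all genes, and 37 were above 0. At an unadjusted p under 0.05, 7 of the 45 were higher, against 7.64% of all genes. Cox6a1 and Cox5b-ps, which had risen, were then at -0.12 and -0.27.

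**Figure D4:**
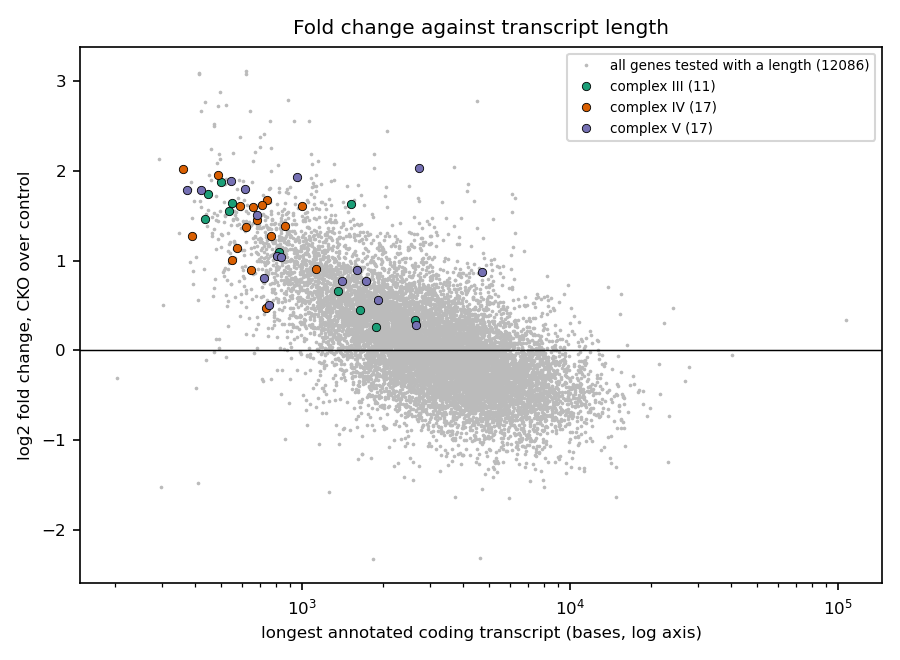
log2 fold change of CKO over control against the longest annotated coding transcript (bases, log axis) for all genes tested (grey) and for the 45 genes (coloured by complex). Of the 670 short genes 649 lie above 0, with a median of 1.04 at up to 1000 bases. Among the short genes are 31 of the 45 genes of the 3 complexes, with a median of 1.51. The 14 longer ones have a median of 0.77.

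The values also moved with the scaling of the libraries. With each library rescaled to equal FPKM totals, the median of all genes moved to -0.37. That of the 45 genes was 0.91, 1.28 above it, and 41 were above 0. No gene passed in that fit, whether among the 45 or over all genes. Quantile normalization left 5 rising, against 1.07% of all genes, 40 above 0 and a median of 0.81. Among genes named above, the log2 fold changes of Atp5a1 and Uqcrc2 became negative in both, and those of Uqcrc1 too. Of the calls over all genes, 85.6% were higher in CKO, and 38.3% were with quantile normalization.

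CKO replicates 3 and 4 were the highest libraries for different genes of the set. Of the 42 genes other than the muscle isoforms, 17 were highest in CKO replicate 3 and their transcripts had a median G + C of 49.1%, and 24 were highest in CKO replicate 4 with a median of 53.2%. Across these 42 genes, the log2 ratio of CKO replicate 4 to CKO replicate 3 had a Spearman correlation of 0.42 with G + C, and across all 12046 genes with both values 0.61. These are correlations across genes of the same 2 libraries. With both libraries left out (a comparison chosen after seeing the data), 0 genes passed, whether among the 45 or over all genes. At an unadjusted p under 0.05, 37 of the 45 were higher, against 23.0% of all genes. Of the 45, 44 were above 0, and their median log2 fold change was 1.04.

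**Figure D5:**
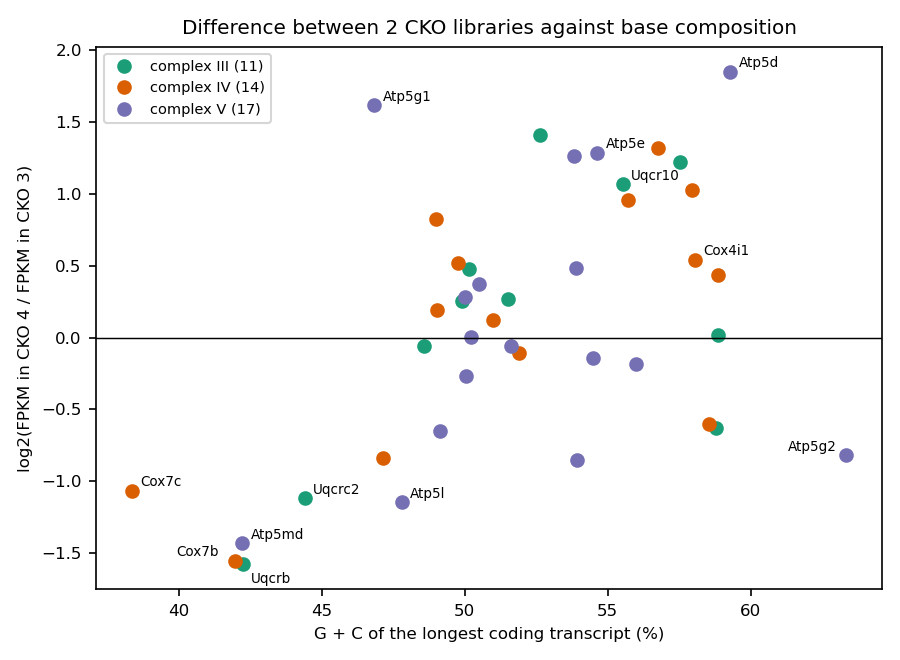
log2 ratio of FPKM in CKO replicate 4 to CKO replicate 3 (vertical) against the G + C percentage of the longest coding transcript (horizontal), for the 42 genes other than the muscle isoforms (1 point a gene, coloured by complex). The ratio tends to be higher at higher G + C, with a Spearman correlation of 0.42, and single genes such as Atp5g1 and Atp5g2 lie off that trend.

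Genes of the same pathway outside the set were also measured. Of 38 nuclear complex I subunit genes 19 rose, 0 fell and 37 were above 0, with a median log2 fold change of 1.24. Over all genes tested 3.88% rose, and of those with a coding transcript up to 1000 bases 29.6% did. Of 22 tested genes for complex IV assembly and the associated subunit Ndufa4, 4 rose and 0 fell. Cox17, a copper chaperone for complex IV, was at 37.2, 7.92, 11.7 and 15.9 FPKM in control and at 63.4, 54.5, 69.5 and 84.2 FPKM in CKO, with no overlap and a log2 fold change of 2.05 (limma adjusted p = 0.0388). Pet100, an assembly factor, Ndufa4, a subunit first assigned to complex I, and Higd1a, a hypoxia-inducible partner of complex IV, rose by 1.66, 1.67 and 1.04. Higd1a was named after its values were seen. The 4 complex II genes gave log2 fold changes above 0 with none passing, with Sdhb at 0.89 (adjusted p = 0.0752) and Sdhd at 0.57 (adjusted p = 0.191). None of 12 tested regulators of mitochondrial biogenesis passed, among them Nrf1 at 0.47 (adjusted p = 0.136) and Yy1 at -0.24 (adjusted p = 0.542).

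Transcripts of the mitochondrially encoded partners overlapped between the genotypes. Of the 6 subunits of complexes III, IV and V made in the organelle, 0 passed and 3 were above 0, with a median log2 fold change of -0.15. mt-Co1, the catalytic subunit of complex IV, was at 8815, 7469, 10209 and 13526 FPKM in control and at 10135, 9404, 15618 and 2301 FPKM in CKO. mt-Atp6, a proton channel subunit of complex V, was at 4367, 3466, 5267 and 5419 FPKM in control and at 5126, 4586, 12105 and 1610 FPKM in CKO. Both were highest in CKO replicate 3 and lowest in CKO replicate 4, so the groups overlapped, with log2 fold changes of -0.35 (adjusted p = 0.749) and 0.02 (adjusted p = 0.985). The difference between nuclear and mitochondrial genes was not tested.

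Promoters of the nuclear genes were searched for 4 letter patterns in the RefSeq table, which gives 250 bases before to 50 after each start and held 35 of the 45 genes. The patterns were chosen after matches had been seen, so their shares are descriptions. CTTCCGG, the core bound by ETS family factors, was found on either strand in 11 of the 35 (31.4%), against 9.93% of 27025 genes, and GCGCA followed directly by TGCGC, the palindrome bound by NRF1, in 4 (11.4%) against 1.07%. AAGATGGC, bound by YY1, was found in 4 (11.4%) against 3.19%, and TATAAA in 3 (8.57%) against 15.7%. None of these letter patterns contains another. Of the 19 genes in the promoter table that rose, 10 held CTTCCGG, and of the 16 that did not pass, 1 did, Cox8a, where the match lies across the start. The same split was not made over all genes, and a link between the pattern and the rise was not tested. CTTCCGG holds a CG, and the 35 genes had a median of 14 CG dinucleotides before the start, against 6 over all genes. The 2 promoters below are shown as examples of genes that rose. Each line gives the 250 bases before the start, 5′ to 3′, with matches in capitals: for Cox6a1 (chr5:115348959-115349208, minus strand) the NRF1 and ETS patterns, and for Uqcr11 (chr10:80406822-80407071, minus strand) the ETS pattern in its reverse complement.

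Cox6a1: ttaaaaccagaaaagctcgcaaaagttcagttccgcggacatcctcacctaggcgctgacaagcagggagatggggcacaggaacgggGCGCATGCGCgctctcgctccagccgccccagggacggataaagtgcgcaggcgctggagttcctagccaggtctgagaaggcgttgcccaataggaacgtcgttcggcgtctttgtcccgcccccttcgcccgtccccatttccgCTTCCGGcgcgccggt

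Uqcr11: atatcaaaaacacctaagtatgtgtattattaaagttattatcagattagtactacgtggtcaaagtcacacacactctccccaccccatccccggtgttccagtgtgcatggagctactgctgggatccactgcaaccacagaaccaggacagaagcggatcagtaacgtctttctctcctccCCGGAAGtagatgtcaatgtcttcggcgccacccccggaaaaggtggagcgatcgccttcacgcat

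Cox6a1 carried both patterns and Uqcr11 one. Cox7a1 and Cox8b, the muscle isoforms in the table, held none of the ETS, NRF1 and YY1 patterns, and Cox8b held TATAAA within the 50 bases after the start, outside the stretch printed above. A match is no evidence that a factor was bound, and a window without one says only that these letters are not in it.

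Of the 45 genes, 18 overlap another annotated gene, 14 of them on the other strand, such as Cox6a2 with Itgad, Atp5md with Taf5 and Cox4i1 with Emc8. The strand setting of the counting is not given in the sources used here, so reads of such partners may not have been told apart and those values are uncertain.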

How the data were processed

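Group and replicate number came from the sample titles. Per the labels, total RNA was extracted with TRIzol and made into libraries with the NEBNext Ultra RNA kit. The submitters' processing notes name the GRCm38 build and list DESeq2 1.20.0, featureCounts 1.5.0-p3, HISAT2 2.0.5, fastp and CASAVA 1.8, without their order. Per the file headers, the deposited table holds FPKM for each library, the authors' p-value and the authors' log2 fold change. Because 1 is added before taking logs, fold changes of low genes are understated.

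Genes reaching 1 FPKM in 4 or more of the 8 libraries were kept (12748, with 1709 left out), and all 45 genes of the 3 complexes passed. The fit to log2(FPKM + 1) used R 4.3.3 and limma 3.58.1, with eBayes trend and genotype as the term, with Benjamini-Hochberg adjustment over all genes kept. The fit was tested on simulated data. Low values gave no whole-read steps (mean distance from whole 0.216 to 0.233, against 0.25 by chance), so no count model was run. Lengths and G + C came from GENCODE M21 (GRCm38; 13477 genes matched).

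Values are given for every library for the isoform pairs and, in each complex, for up to 4 called genes of smallest adjusted p, the 2 highest means and the lowest log2 fold change. Other genes are given by value or count. From each other list, up to 3 called genes are named, or the 2 of highest mean if none was called. The set, the lists, the isoform pairs and the settings were chosen with earlier results of these data known. Alternatives covered pseudocount, filter, scaling, transcript length, covariates, replicate number as a block and each library left out.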

Additional observations from a re-analysis of the deposited data

Results flagged for a closer look

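Among the 25 genes described for every library, each genotype's 4 libraries were searched for a single library far from the other 3 (Dixon's gap over range, at its 95% limit). Of 50 such groups, 6 held one. At this limit about 1 in 20 groups of independent, normally spread values would hold one. These genes share the same 8 libraries and the search used untransformed FPKM, so 6 of 50 cannot be set against that rate. Atp5l was at 558 FPKM in CKO replicate 3 against 219 to 253 FPKM in the rest of that group. Atp5md was at 638 FPKM in CKO replicate 3 against 211 to 237 FPKM. Uqcr10 was at 511 FPKM in CKO replicate 4 against 202 to 243 FPKM. Cox6b2 was at 22.0 FPKM in control replicate 1 against 7.74 to 9.34 FPKM in the other controls. Cox4i2 was at 9.59 FPKM and Cox7a2 at 88.7 FPKM in control replicate 4, against 5.49 to 5.69 FPKM and 60.3 to 62.2 FPKM. Control replicate 4 also had the highest skeletal muscle marker sum of the controls, 3828 FPKM. The cause of these values was not tested.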

How the results depend on the processing

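The number of genes that rose among the 45, 24 of 578 genes called in all, depended on the setting, and the cause was not tested. It was 22 with a pseudocount of 0.1 FPKM (478 genes in all), 20 with no filter on low values (381), 30 with a filter of 5 FPKM (837), 27 with the skeletal muscle covariate (1628) and 5 with quantile normalization (358). It was 0 of 0 with median-of-ratios scaling, equal FPKM totals, the length trend removed, the marrow covariate, the Y-linked covariate, and CKO replicates 3 and 4 left out together. Totals in brackets, like the 578, count both directions. Of all genes, 3.88% were called higher in the main fit and 3.24% with the pseudocount of 0.1 FPKM. The share was 2.26% with no filter, 8.27% with the 5 FPKM filter, 9.22% with the muscle covariate and 1.07% with quantile normalization. Leaving out 1 library gave 0 to 33 of the 45 and, in either direction, 0 to 1879 of all genes by limma. Of all genes, 0% to 12.1% were then called higher. At an unadjusted p under 0.05, 34 to 38 of the 45 were higher in those fits. In the fits with 0 calls, 816 to 3972 genes in all had an unadjusted p under 0.05. The 2 Y-linked classes allow no test, so they gave no count.

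The median log2 fold change of 1.38 was 0.91 with equal totals, 0.81 with quantile normalization, 0.30 with the length trend removed, 1.04 without CKO replicates 3 and 4, 0.87 where Y-linked genes were at 0 and 1.86 where they were above 0. It lay between 1.14 and 1.44 when 1 library was left out.

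Same-numbered control and CKO libraries had correlations of -0.03, 0.23, -0.26 and 0.43, too few values to show whether the numbers pair the samples. Of the controls, 2 of 4 correlated best with their own number. With replicate number as a block, 19 of the 45 rose among 274 genes called in either direction, and 1.95% of all genes rose.

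Directions turned for genes that had not passed, apart from Cox5b-ps and Cox6a1, which had. With equal totals, log2 fold changes were -0.19 for Atp5a1, -0.082 for Uqcc1, -0.018 for Uqcrc1, -0.21 for Uqcrc2 and -0.45 for mt-Atp6. With quantile normalization they were -0.30 for Atp5a1, -0.31 for Atp5b, -0.13 for Atp5g2, -0.028 for Cyc1, -0.015 for Uqcrc1, -0.15 for Uqcrc2 and -0.47 for mt-Atp6. With the length trend removed they were -0.54 for Atp5g2, -0.27 for Atp5g3, -0.59 for Cox4i2, -0.27 for Cox5a, -0.27 for Cox5b-ps, -0.12 for Cox6a1, -0.28 for Cox8a, -0.054 for Sdhd, -0.0076 for Uqcrc2, 0.067 for Yy1 and -1.10 for mt-Atp6. Where Y-linked genes were above 0 they were -0.14 for Sdhd, -0.43 for Uqcrc2 and -1.52 for mt-Atp6, and where they were at 0 mt-Co1 was at 0.37. mt-Atp6 was at -0.48 with the Y-linked covariate and between -0.44 and 0.53 when 1 library was left out, including -0.028 without CKO replicate 1, -0.44 without CKO replicate 3 and -0.11 without control replicate 2. mt-Co1 was at 0.14 with the marrow covariate and 0.23 without CKO replicate 4, with a range of -0.70 to 0.23 over the fits without 1 library. Cox4i2 was at -0.11 without CKO replicates 3 and 4. The isoform ratio differences ranged over the fits without 1 library from -0.26 to 1.499 for Cox6a2/Cox6a1, from -0.13 to 1.104 for Cox7a1/Cox7a2 and from 0.29 to 2.049 for Cox8b/Cox8a.

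Depth is unknown from FPKM, so low values such as those of the muscle isoforms carry no counting interval.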

Other observations

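Atp5j, a peripheral stalk subunit of complex V, and Gabpa, an ETS family factor known to act on many genes of the respiratory chain, overlap on opposite strands. This pair was named after its values were seen. Atp5j was at 101, 75.8, 77.8 and 107 FPKM in control replicates 1 to 4 and at 151, 151, 246 and 216 FPKM in CKO replicates 1 to 4. Gabpa was at 12.9, 13.7, 13.0 and 10.4 FPKM in control and at 14.3, 15.4, 14.3 and 2.94 FPKM in CKO, with a log2 fold change of -0.28 (limma adjusted p = 0.715). Gabpa was lowest in CKO replicate 4, while Atp5j there lay above every control. That library also had 155 genes listed at 0, against 5 to 31 elsewhere, and Gabpa was not the only regulator lowest there.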
